A study of Saccharomyces cerevisiae with 4 samples.

Results

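The ATG genes of Saccharomyces cerevisiae, which code for proteins of autophagy, were followed in RNA crosslinked to Mip6 at 30 °C and after heat shock at 39 °C. Members were all features whose gene name in the authors' deposited table begins with ATG and a digit, which gave 31 of 7126 features. The rule uses names and no measured value. All 31 carry the same symbol in the RefSeq annotation of assembly R64. Mip6 is an RNA-binding protein studied for how it meets the export receptor Mex67 and for stress mRNAs that depend on Msn2 and Msn4. The labels name 1 strain, Mip6-HTB, in which Mip6 carries an affinity tag under a promoter that the labels do not name, and 4 samples, with both temperatures split by strand into a minus and a plus sample. All cells were grown in synthetic medium with 2% glucose and 60 µM uracil. The 30 °C culture had 4-thiouracil for 45 min at 30 °C. The heat-shocked culture had it for 25 min at 30 °C and then for 20 min at 39 °C. Both were irradiated at 365 nm for 15 min, which crosslinks RNA that has taken up 4-thiouracil to bound protein (PAR-CLIP). The tagged protein was then purified and its RNA sequenced.

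In autophagy a double membrane closes around cytoplasm and carries it to the vacuole, the yeast lysosome. The Atg1 kinase complex starts the process when the nutrient-sensing kinase complex TORC1 is inactive, the Vps34 lipid kinase marks the membrane, and Atg9 vesicles with the lipid transfer protein Atg2 let it grow. A pair of ubiquitin-like systems attaches Atg8 to the membrane lipid phosphatidylethanolamine. In selective autophagy, receptors tie a cargo such as a mitochondrion or a peroxisome to Atg8 and to the scaffold Atg11. The vacuole finally breaks the content down and returns amino acids to the cytosol.

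The strand samples of a temperature are parts of 1 library, so with 1 library per temperature the temperatures could not be tested against each other and no p-value is given. Reads in features numbered 11657228 at 30 °C and 6950540 at 39 °C. Each gene was measured from the sample of its own strand, and its level is given as CPM, that is reads per 1000000 reads in features over both strand samples of that temperature. ATG genes had 145 to 5122 own-strand reads at 30 °C and 67 to 3694 at 39 °C. Ratios are log2 of 39 °C over 30 °C, with an exact binomial 95% interval that covers counting error only. PCR copies are not independent molecules, and the difference between cultures is not in these intervals. No input RNA or untagged strain was among the samples analysed here, and reads depend on how much of an mRNA was present as well as on its crosslinking. In a bulk culture, fewer cells with an mRNA and less mRNA per cell cannot be told apart.

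As a group the ATG mRNAs had slightly more Mip6 reads after heat shock. Their share of reads was 0.306% at 30 °C and 0.354% at 39 °C, with 95% Clopper-Pearson intervals of 0.302 to 0.309 and 0.350 to 0.359. Their median log2 ratio was 0.21, with a range from -0.36 to 1.09, while the median over 6162 features with at least 20 own-strand reads (the tested features) was -0.03. All 31 ATG genes passed that minimum. The CPM was higher at 39 °C for 21 of 31 genes, against 46.8% of all tested features. Only ATG15 was at least 2-fold higher, and none was 2-fold lower, where 4.4% of all tested features were 2-fold higher and 2.69% 2-fold lower. At 1.5-fold, 3 ATG genes were higher (11.5% of all) and none was lower (11.9% of all). The counting interval lay above no change for 18 genes (31.5% of all), below it for 4 (38.8% of all), and included it for 9. By rank, 11 of 31 lay in the top 25% of all ratios and 1, ATG16, in the bottom 25%.

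**Figure D1:**
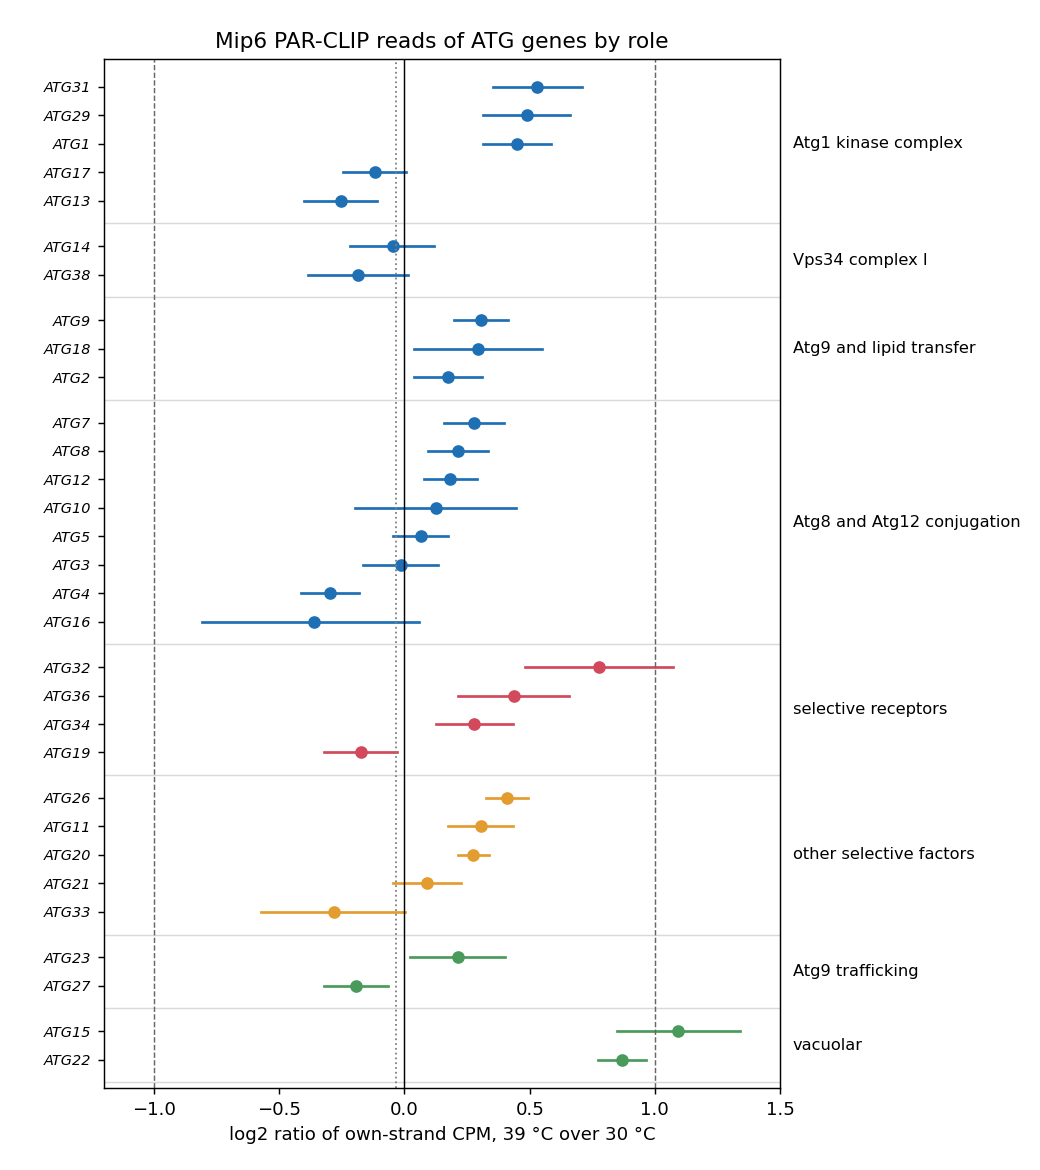
Log2 ratio of own-strand CPM at 39 °C over 30 °C for the 31 ATG genes, grouped by role, 1 library per temperature. Points are ratios, bars are 95% exact binomial intervals of counting error, dashed lines mark 2-fold, and the dotted line is the median of all tested features. The vacuolar genes ATG15 (1.09) and ATG22 (0.87) lie farthest to the right, and the lowest point is ATG16 (-0.36).

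Read levels of ATG mRNAs were ordinary for this dataset. The median level per length was 61.4 CPM per kilobase at 30 °C and 69.3 at 39 °C, against 74.1 and 73.5 over all tested features. At each temperature 13 of 31 genes lay above the median of all. ATG8 (YBL078C, chromosome II, 80378 to 80731, build R64), which codes for the ubiquitin-like protein of the autophagic membrane, was the highest per length. It had 346 CPM per kilobase at 30 °C and 402 at 39 °C, at percentiles 89.7 and 93.6 of all tested features. ATG12, the second ubiquitin-like protein gene, followed with 282 and 320 CPM per kilobase. ATG20, which codes for a sorting nexin, came next with 228 and 276. Lowest at 30 °C stood the mitophagy receptor gene ATG32 with 10.3 and 17.6 CPM per kilobase and the lipase gene ATG15 with 13.6 and 28.9. At 39 °C ATG16, ATG18 and ATG2, with 21.3, 21.3 and 22.6 CPM per kilobase, were also below ATG15. The order of levels was largely kept between temperatures. Between the libraries CPM had a Spearman correlation of 0.957 across the 31 genes and 0.943 across all tested features, as a description across genes that share both libraries.

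**Figure D2:**
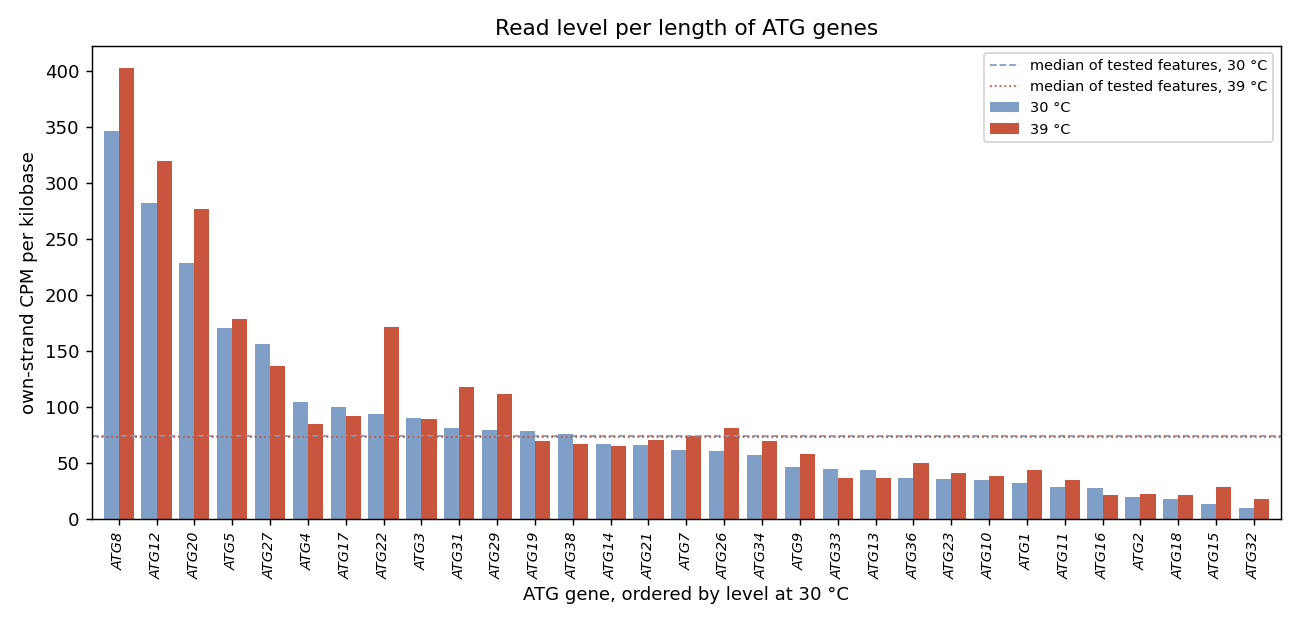
Own-strand CPM per kilobase of each ATG gene at 30 °C and 39 °C, 1 library per temperature, ordered by the level at 30 °C. Horizontal lines are the medians of all tested features (74.1 and 73.5). ATG8 (346 and 402) and ATG12 (282 and 320) stand highest, and ATG22 goes from 93.8 to 171.

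The core machinery comprised 18 genes, with a median log2 ratio of 0.15. Its reads were 0.161% of all at 30 °C and 0.174% at 39 °C, and no core gene was 2-fold different. Within the Atg1 kinase complex the subunit genes went apart. ATG1, the kinase gene (YGL180W, chromosome VII, 160065 to 162758), had 86.5 at 30 °C and 118 CPM at 39 °C, or 0.45 (0.32 to 0.58) as a log2 ratio. ATG31, whose product joins the scaffold to Atg29, had 48.1 and 69.5 CPM, or 0.53 (0.35 to 0.71) as a log2 ratio. ATG29 had 51.0 and 71.7 CPM, or 0.49 (0.32 to 0.66) as a log2 ratio. These 3 genes were higher at 39 °C by similar amounts, with intervals that overlap. ATG17, the scaffold that binds the Atg29 and Atg31 proteins, had 126 and 116 CPM, or -0.12 (-0.25 to 0.01) as a log2 ratio. ATG13, the regulatory subunit that TORC1 phosphorylates, had 97.2 and 81.4 CPM, or -0.26 (-0.40 to -0.11) as a log2 ratio. The intervals of ATG17 and ATG13 do not overlap those of the other 3 subunit genes. ATG29 shares 24 bases with SET6 on the other strand, and it is the only ATG gene that overlaps another gene in the RefSeq table.

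The Vps34 complex genes with an ATG name differed little. ATG14, which directs the lipid kinase to autophagy, had 69.3 and 67.1 CPM, or -0.05 (-0.22 to 0.12) as a log2 ratio. ATG38, a linker subunit of the same complex, had 51.6 CPM at 30 °C and 45.3 at 39 °C, or -0.18 (-0.39 to 0.01) as a log2 ratio. Both intervals include no change. The genes of membrane supply were slightly higher at 39 °C, all with intervals above no change. ATG9, the transmembrane protein of the seed vesicles, had 140 and 173 CPM, or 0.31 (0.20 to 0.41) as a log2 ratio. ATG2, a bridge for lipid transfer, had 95.7 and 108 CPM, or 0.17 (0.04 to 0.31) as a log2 ratio. ATG18, which binds the lipid made by Vps34 and partners Atg2, had fewer reads, with 26.2 and 32.1 CPM, or 0.30 (0.04 to 0.55) as a log2 ratio.

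Among the 8 genes of Atg8 and Atg12 conjugation the median log2 ratio was 0.10 and the range -0.36 to 0.28. ATG7, the activating enzyme shared by both systems, had 116 and 141 CPM, or 0.28 (0.16 to 0.40) as a log2 ratio. ATG8 had 123 and 142 CPM, or 0.21 (0.10 to 0.33) as a log2 ratio, and ATG12 158 and 179 CPM with 0.18 (0.08 to 0.29). These 3 were the conjugation genes whose intervals lay above no change. ATG4, the protease that trims Atg8 before conjugation and releases it from the lipid afterwards, was the one gene with an interval below no change. It had 155 and 126 CPM, or -0.30 (-0.41 to -0.18) as a log2 ratio. The conjugating enzyme genes ATG3, with a log2 ratio of -0.01 (-0.17 to 0.14), and ATG10, with 0.13 (-0.20 to 0.45), had intervals on both sides of no change. So did ATG5, which carries Atg12, with 151 and 158 CPM, or 0.07 (-0.04 to 0.18) as a log2 ratio.

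ATG16, whose product completes the Atg12-Atg5-Atg16 complex, had the fewest reads of all members, 145 at 30 °C and 67 at 39 °C. Its levels were 12.4 and 9.64 CPM, and its log2 ratio of -0.36 (-0.81 to 0.06) had the widest interval of the members. The authors' deposited table gives it a log2 ratio of 0.05, which is 0.41 above the value here. For the other 30 genes this gap ran from -0.02 to 0.15, with a median of 0.05 over all 31. The value of ATG16 is therefore the least settled of the set, and why the sources differ was not tested.

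Of the receptors of selective autophagy, 4 carried an ATG name in the deposited table, and each stands for another cargo or condition. ATG32, the mitophagy receptor gene (YIL146C, chromosome IX, 74184 to 75773), had 16.3 CPM at 30 °C and 27.9 at 39 °C, or 0.78 (0.48 to 1.07) as a log2 ratio. ATG36, the pexophagy receptor gene, had 32.4 and 43.9 CPM, or 0.44 (0.21 to 0.66) as a log2 ratio. ATG34, the receptor that carries alpha-mannosidase to the vacuole in starved cells, had 71.0 and 86.2 CPM, or 0.28 (0.12 to 0.43) as a log2 ratio. These 3 were read more at 39 °C. ATG19, the receptor of the constitutive cytoplasm-to-vacuole route, had 97.6 and 86.5 CPM, or -0.17 (-0.32 to -0.03) as a log2 ratio. ATG34 and ATG19 lie one after the other on chromosome XV (165714 to 166952 and 168727 to 169974) and code for related proteins. Per length, ATG34 stood at 57.3 CPM per kilobase at 30 °C, below ATG19 with 78.2. At 39 °C they were nearly level, with 69.6 and 69.3 CPM per kilobase, and their ratio intervals do not overlap.

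Set side by side, the receptors had a median log2 ratio of 0.36 over 4 genes and the core machinery 0.15 over 18, a difference of -0.21 for core minus receptors. The ranges overlap widely, from -0.17 to 0.78 for receptors and from -0.36 to 0.53 for the core. As a pooled ratio of all reads the receptors stood at 0.17 (0.08 to 0.26) and the core at 0.11 (0.08 to 0.15), so these intervals overlap. With 4 receptor genes and 1 library per temperature, these values do not separate the classes. ATG39 and ATG40, receptor genes of the endoplasmic reticulum that bear these names only in the RefSeq annotation, were outside the rule. ATG39 had 583 own-strand reads at 30 °C and 593 (85.3 CPM) at 39 °C, or 0.77 (0.60 to 0.94) as a log2 ratio. ATG40 had 34.6 and 28.8 CPM, or -0.26 (-0.52 to -0.02) as a log2 ratio, with 65.9% of its reads at 30 °C on the opposite strand. Adding both left the receptor median at 0.36, since ATG39 lies above that value and ATG40 below it. CUE5, a receptor gene without an ATG name, was in none of these medians. Nor was ATG45, named so only in RefSeq and given no role here, with a log2 ratio of -0.25. The receptor median and its difference from the core therefore hold only for the lists used. CUE5 had 83.2 CPM at 30 °C and 62.3 at 39 °C, or -0.42 (-0.58 to -0.25) as a log2 ratio. That ratio lies below the ranges of both classes.

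The other factors of selective autophagy included the ATG gene with most reads. ATG20 (YDL113C, chromosome IV, 256633 to 258555) had 439 at 30 °C and 531 CPM at 39 °C, or 0.28 (0.21 to 0.34) as a log2 ratio, from 5122 and 3694 reads. ATG26, a sterol glucosyltransferase gene known for pexophagy in Pichia pastoris, had 220 and 292 CPM, or 0.41 (0.33 to 0.50) as a log2 ratio. ATG11, the scaffold that receptors bind, had 100 and 123 CPM, or 0.30 (0.17 to 0.43) as a log2 ratio. All 3 had intervals above no change. ATG21, which like Atg18 binds the Vps34 lipid, had 98.7 and 105 CPM, or 0.09 (-0.04 to 0.23) as a log2 ratio. ATG33, a mitochondrial protein gene of mitophagy, had 26.3 and 21.6 CPM, or -0.28 (-0.57 to 0.00) as a log2 ratio. The own-strand interval of ATG33 just includes no change and does not overlap the interval of the mitophagy receptor gene ATG32. With both strands summed the log2 ratio of ATG33 was -0.06.

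The highest ratios of the set belonged to its 2 genes of vacuolar breakdown and efflux, ATG15 and ATG22. ATG42, a vacuolar gene outside the rule, was lower at 39 °C, with a log2 ratio of -0.15 (-0.24 to -0.05). ATG15, a lipase that opens autophagic bodies inside the vacuole (YCR068W, chromosome III, 237214 to 238776), had 21.2 CPM at 30 °C and 45.2 at 39 °C, from 247 and 314 reads. Its log2 ratio was 1.09 (0.85 to 1.34), at percentile 96.4 of all tested features. ATG22, a vacuolar exporter of amino acids (YCL038C, chromosome III, 54941 to 56527), had 149 and 272 CPM from 1736 and 1889 reads, or 0.87 (0.77 to 0.96) as a log2 ratio at percentile 94.2. Just under the 2-fold line, after ATG15 with 2.13-fold, stood ATG22 with 1.82-fold and ATG32 with 1.71-fold. The interval of ATG15 reaches below 2-fold. The trafficking genes of Atg9 stood on either side of no change. ATG23 had 48.6 and 56.4 CPM with a log2 ratio of 0.21 (0.02 to 0.40), and ATG27 had 127 and 111 CPM with -0.19 (-0.32 to -0.07).

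**Figure D3:**
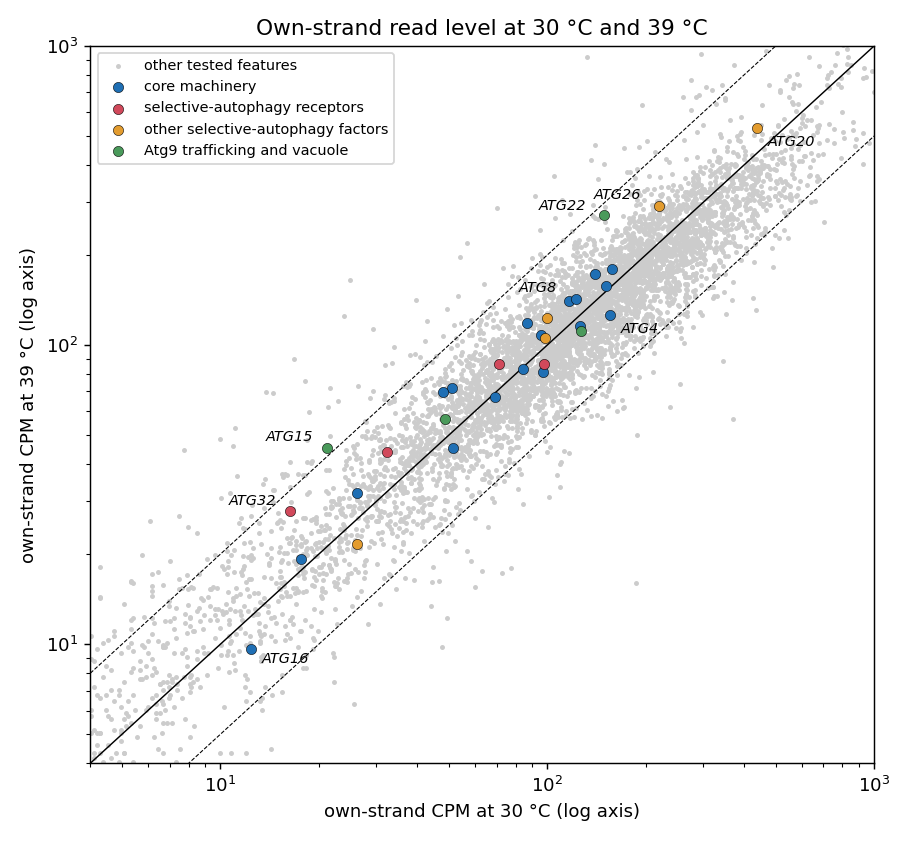
Own-strand CPM at 39 °C against 30 °C on log axes, for ATG genes by class and for other tested features in grey (features beyond the axes are not drawn), 1 library per temperature. The solid line marks equal CPM and the dashed lines 2-fold. ATG15 lies just past the upper 2-fold line with 21.2 and 45.2 CPM, and ATG20 has the highest CPM of the ATG genes (439 and 531).

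Reads on the strand opposite to a gene were a minor share for most ATG genes. The median opposite-strand share was 6.24% at 30 °C and 7.11% at 39 °C, against 6.01% and 8.08% over all tested features. It was at least 20% for 6 of 31 genes at 30 °C (20.1% of all) and for 5 at 39 °C (23.9% of all). ATG18 had the highest share, 43.5% (95% interval 39.3 to 47.8) at 30 °C and 52.0% (47.4 to 56.7) at 39 °C. ATG32 followed with 33.6% and 31.0%. The share was higher at 39 °C for 23 of 31 genes, where 80% of all tested features were, and intervals lay apart in that direction for 8 genes, against 27.9% of all. The share of ATG19, one of them, went from 5.64% (4.41 to 7.09) to 17.2% (14.5 to 20.2). Its opposite-strand reads went from 68 to 125, or 1.62 (1.19 to 2.07) as a log2 ratio, while its own-strand ratio was -0.17. ATG38 went from 6.24% to 14.2% and ATG33 from 11.8% to 24.6%. Each of these 3 genes had fewer own-strand and more opposite-strand reads in CPM at 39 °C. ATG15 had the opposite course, from 28.0% (23.3 to 33.1) to 15.6% (12.1 to 19.7), and was the only member with intervals apart in that direction (3.33% of all). Its opposite-strand log2 ratio was 0.02 (-0.48 to 0.50).

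**Figure D4:**
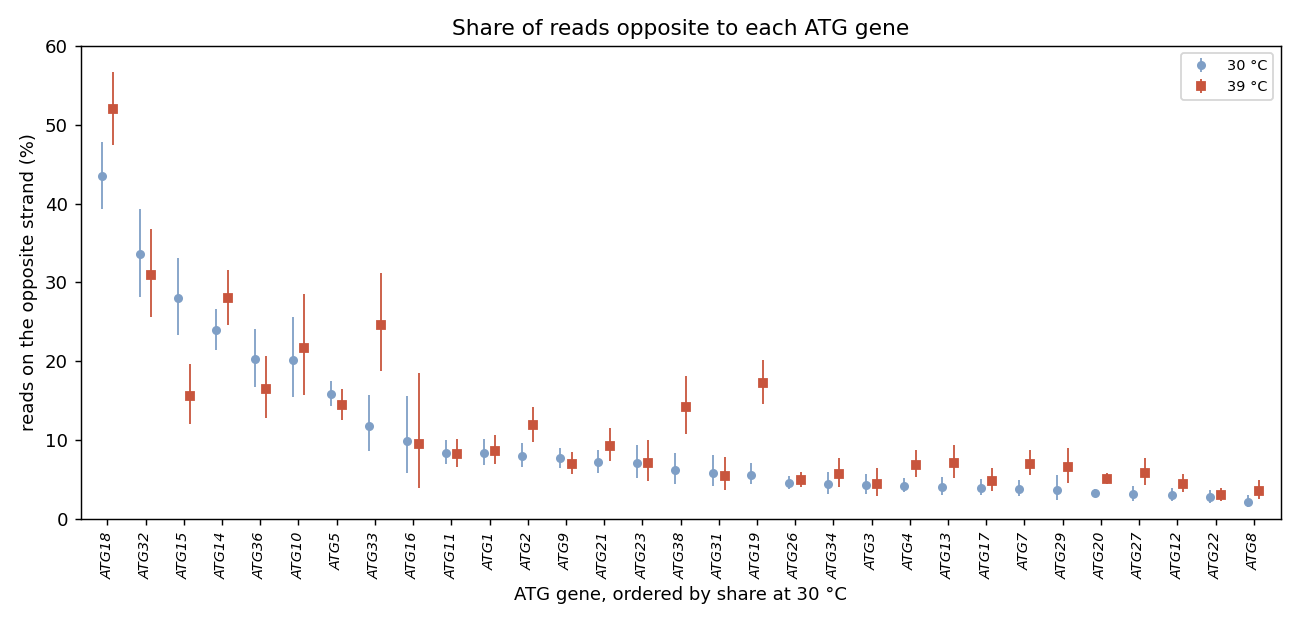
Percent of reads of each ATG gene that lie on the opposite strand, at 30 °C (circles) and 39 °C (squares), ordered by the value at 30 °C, with 95% Clopper-Pearson intervals of counting error. ATG18 is highest at 43.5% and 52.0%, ATG19, ATG33 and ATG38 are higher at 39 °C, and ATG15 is lower at 39 °C (28.0% and 15.6%).

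Strand therefore mattered for the size of several ratios. With both strands summed, ATG15 had a log2 ratio of 0.86 and was no longer past 2-fold. ATG19 moved from -0.17 to 0.01, and ATG18 from 0.30 to 0.53. ATG22, with 2.80% and 3.03% of its reads on the opposite strand, kept 0.87.

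Gene length differed within the set, and longer ATG genes had somewhat higher ratios. The 12 ATG genes under 1000 bases had a median log2 ratio of 0.10, the 13 of 1000 to 2000 bases 0.28 and the 6 longer ones 0.31. Over all tested features the same classes had medians of -0.15, 0.00 and 0.09. Each length class of ATG genes was therefore above the same class of all features. The Spearman correlation of log2 ratio with length was 0.333 over the 31 genes and 0.178 over all tested features, a description across genes that share both libraries.

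The authors' deposited table holds their own comparison of the libraries, whose log2 ratio is negative for features they call up, so its sign was turned here. Among ATG genes the authors' deposited table calls up only ATG22, 1 of 31, with a log2 ratio of 0.92 and a probability of 0.92. None was called down. Over all features with a value in the authors' deposited table, 3.05% were called up and 5.12% down. ATG15, with the larger ratio of 1.14 in the authors' deposited table, had a probability of 0.81, under the 0.9 above which features were called. The next probabilities in the authors' deposited table were those of ATG29 with 0.864 and ATG31 with 0.853.

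Another 4 genes bear an ATG name only in the RefSeq annotation, besides ATG39 and ATG40. ATG41, which acts in Atg9 movement, had 62.9 CPM at 30 °C and 122 at 39 °C, or 0.95 as a log2 ratio with a lower interval bound of 0.81, and was called up in the authors' deposited table. ATG42, a vacuolar carboxypeptidase gene, had a log2 ratio of -0.15 (-0.24 to -0.05), and ATG44, a mitochondrial fission factor gene, -0.26 (-0.37 to -0.15). ATG45 had -0.249 (-0.503 to -0.002), an interval that just excludes no change. Only ATG41 of these 4 stood above no change.

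The rest of the pathway was followed in 35 genes without an ATG name, all with at least 20 own-strand reads. Their median log2 ratio was -0.07, and 11 of 35 were above 0, where 46.8% of all tested features had a higher CPM at 39 °C. Of the 35, 1 was 2-fold higher (4.4% of all) and none 2-fold lower (2.69% of all), shares near those of all features. The higher gene was LST8, a subunit of TORC1 and of its sister complex TORC2 (YNL006W, chromosome XIV, 620067 to 620978). It had 195 at 30 °C and 634 CPM at 39 °C, or 1.70 (1.63 to 1.77) as a log2 ratio. The other 6 genes of TORC1 and its upstream regulators were all under 2-fold. RPH1, which codes for a repressor of ATG transcription, was next with 66.9 and 90.1 CPM, or 0.43 (0.27 to 0.58) as a log2 ratio. The lowest were YPT1, a Rab GTPase gene, with 1146 and 605 CPM, or -0.92 (-0.97 to -0.87) as a log2 ratio, and GCN4, the activator of amino acid genes, with 528 and 329 CPM and -0.68 (-0.75 to -0.61). By role, the 3 genes of the Vps34 kinase had a median log2 ratio of 0.41, with a range from -0.02 to 0.42. The 3 vacuolar protease genes had a median of -0.32 but ranged from -0.38 to 0.31. For the 12 genes of tethering and fusion the median was -0.18 (range -0.92 to 0.25), and for the 4 cargo genes of the cytoplasm-to-vacuole route -0.12 (range -0.58 to 0.12).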

How the data were processed

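PAR-CLIP reads of Mip6-HTB cells were analysed from 4 samples, a minus- and a plus-strand sample at each temperature. The authors deposited raw read counts for each feature, followed by 5 HTSeq summary rows that were left out. The aligner Bowtie 1.1.1, HTSeq and the builds sacCer3 and R64 are named per the submitters' processing notes. Filters, removal of duplicates and strand setting were not given in the sources used here. Reads in no feature made up 22.3% to 24.7% per sample. Ambiguous reads made up 9.94% at 30 °C and 13.3% at 39 °C in the minus samples, and 3.92% and 4.51% in the plus samples. Their bearing on the ratios was not tested.

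The authors' deposited table holds a log2 ratio, a probability and a ranking, which are scores and not p-values. Its 2 columns of values per library match no label and were not used. Its gene names and lengths were used. Over 6162 features its log2 ratio, with the sign turned, correlated with the ratio from own-strand reads (Pearson 0.950).

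A feature's strand was read from its systematic name, which 6685 of 7126 features allow. Of reads in these, 91.4% at 30 °C and 88.6% at 39 °C lay on the own strand. CPM used 1 total per temperature. The log2 ratio was taken after adding 0.5 reads, for features with at least 20 own-strand reads. Intervals are exact binomial at 95%. A count of 0 would allow 0.257 CPM at 30 °C and 0.432 CPM at 39 °C (3 counts). Symbols and coordinates come from RefSeq R64. Python 3.11.15 with scipy 1.17.1, edgeR 4.0.16 and DESeq2 1.42.0 were used, the last 2 for scaling factors alone. The calculation was tested on simulated counts.

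Members and lists were chosen with earlier results of these data known. Every ATG gene was named. Of the other pathway genes those past 2-fold were named, with the 2 highest and 2 lowest of those with at least 50 reads. CUE5 was also named, as a receptor gene, after its value was seen. ATG genes named so only in RefSeq were added after their values were seen.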

Additional observations from a re-analysis of the deposited data

How the results depend on the processing

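The median log2 ratio of the ATG genes ran from 0.20 to 0.26 over 9 alternatives, that of the core from 0.13 to 0.21 over 10, that of the receptors from 0.28 to 0.42 over 11, and core minus receptors from -0.22 to -0.13 over 11. All of these kept their sign, but several alternatives could not move core minus receptors. The alternatives for scaling were TMM and DESeq2 factors, own-strand totals and totals without the 100 highest features. Further ones were both strands summed, a pseudocount of 5 reads, no filter or 100 reads, and the authors' ratios. TMM and DESeq2 factors and totals without the 100 highest features shift every gene alike. The changed read filters kept all 31 ATG genes and left their ratios as they were. Core minus receptors was therefore fixed at -0.21 under these settings, which say nothing about how stable it is. The receptors were also pooled with the other selective-autophagy factors, or with ATG39 and ATG40. The list widened by the other factors, which are not receptors, gave the ends at 0.28 and -0.13. No list held CUE5 or ATG45, which both had ratios below no change, so the sign of core minus receptors was not checked with them. The count of 2-fold higher genes was 0 with both strands summed, where ATG15 fell under 2-fold, and 3 at 1.5-fold. It was 1 under the other 8 alternatives, and no gene was 2-fold lower under any. With both strands summed the ATG share was 0.329% at 30 °C and 0.389% at 39 °C, since more reads are counted. Of single genes, ATG19 left its interval with both strands summed and ATG20 with the authors' ratio (0.34). Some single genes changed sign. ATG3 went from -0.01 to 0.03 with totals without the 100 highest features, and was also above 0 with the authors' ratio. ATG14 went from -0.05 to 0.03 with both strands summed, where ATG19 also changed sign. ATG16 did so with the authors' ratio. Genes with few reads, ATG16 first, are limited by depth. Lists with ATG39 and ATG40 were added after seeing the data. No paired analysis was possible because each temperature has 1 library.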
